A study of Homo sapiens with 14 samples.

Results

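The sites described here are the adenosines read as guanosine inside 9 genes of the heat shock chaperone system. Chaperones bind other proteins while these fold, assemble or recover from stress. Members of the HSP70 family bind short exposed stretches of unfolded protein in cycles driven by ATP, HSP90 proteins act later on partly folded clients such as kinases and receptors, and HSP60 encloses proteins in the mitochondrion. Cofactors such as BAG3 set how fast HSP70 lets a client go. Several of these genes are raised by heat or proteotoxic stress.

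The genes were chosen by the sites listed in them, with the results of these data known. Within them membership was by position alone, so a site belonged if it lay inside the hg19 span of HSP90AA1, HSP90AB1, HSP90B1, HSPA8, HSPA5, HSPA9, HSPA4, HSPD1 or BAG3. This gave 282 of the 26172 distinct sites found across the 14 lists. Because the genes were picked for their sites, the number of sites in them is a description and was not tested.

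The cells were HEK293T, a line derived from human embryonic kidney, and carried 1 of 4 RNA base editors. Such editors are meant to convert adenosine to inosine, which is sequenced as guanosine. Each of the 14 libraries of polyadenylated RNA was deposited as a list of sites with an A-to-G rate, a fraction from 0 to 1 that is called the editing level here. The 7 groups of 2 libraries were DECOR with the MALAT1 guide, dCas13d-ADAR with the EZH2 or the NT guide, REPAIR.t1 with the EZH2_A22 or the NT guide, and REPAIRv2 with the EZH2_A22 or the NT guide. NT and A22 are not spelled out in the labels, and how the editors were delivered is not stated there. The 2 DECOR libraries were read for 62 and 160 cycles and the other 12 for 25 and 97 cycles, so for DECOR the editor, the guide and the read length cannot be told apart. Whether paired libraries stem from separate cultures is not stated either, and p-values then measure only a spread that may be technical. There was no library without an editor, and which of these sites would be read as guanosine in untreated cells is not shown.

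The lists give no read counts, so the depth behind a level is unknown, and no interval could be set on any level. A position missing from a list may be unedited, below the authors' threshold or thinly covered. In numbers of sites, editing and detection therefore cannot be told apart. The lists also hold no expression values, so neither the cell type nor the abundance of the 9 transcripts could be checked. Whole lists ran from 5516 to 5855 sites in DECOR, 5730 to 5834 in dCas13d-ADAR, 4356 to 4784 in REPAIR.t1 and 46 to 101 in REPAIRv2.

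DECOR listed more sites in these genes than any other editor. The DECOR libraries held 133 and 136 chaperone sites. The dCas13d-ADAR libraries held 35 and 39 with the EZH2 guide and 38 and 38 with the NT guide, and the REPAIR.t1 libraries held 36 and 31 with the EZH2_A22 guide and 42 and 38 with the NT guide. Neither DECOR library came near the range of 31 to 42 that dCas13d-ADAR and REPAIR.t1 shared. No REPAIRv2 library listed a site in any of the 9 genes.

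DECOR was also highest relative to the length of the lists. Chaperone sites made up 2.37% ± 0.0625 of a DECOR list (mean ± SD, n = 2 libraries), 0.648% ± 0.0328 of a dCas13d-ADAR list (n = 4) and 0.793% ± 0.115 of a REPAIR.t1 list (n = 4). The dCas13d-ADAR libraries spanned 0.600% to 0.673% and the REPAIR.t1 libraries 0.648% to 0.897%, so these ranges overlapped. At the mean shares of dCas13d-ADAR or REPAIR.t1, a REPAIRv2 list of 46 to 101 sites would hold less than 1 such site, and at the DECOR share it would hold more, so the absence from REPAIRv2 is not informative about those lower shares.

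**Figure D1:**
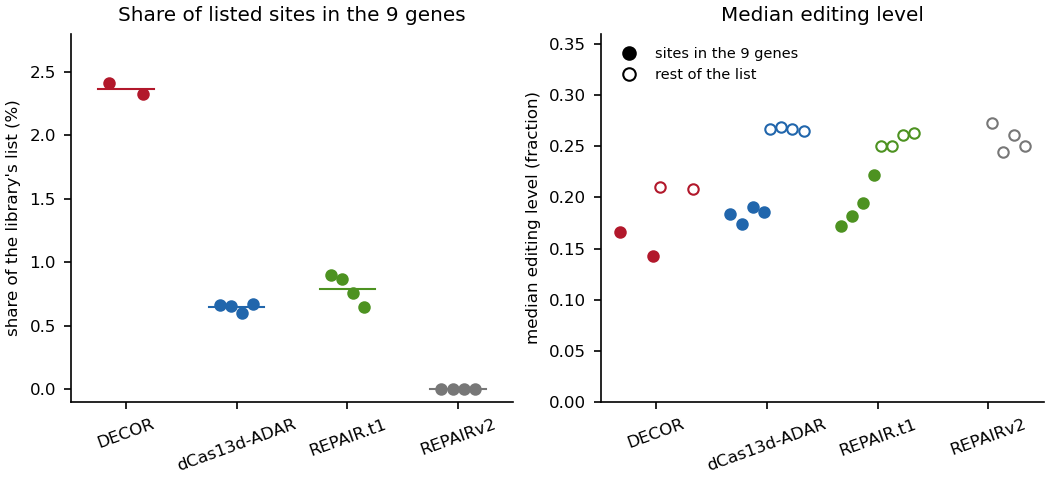
Left, share of each library's list that lay in the 9 chaperone genes, in percent, with 1 point per library and a line at the editor's mean. The DECOR points lie at 2.41% and 2.32%, above all dCas13d-ADAR and REPAIR.t1 points, and the 4 REPAIRv2 points lie at 0. Right, median editing level per library as a fraction, with filled points for chaperone sites and open points for the rest of the same list. Every filled point lies below the open points of its editor, and REPAIRv2 has open points only.

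Editing levels at chaperone sites were low relative to the other sites of the same lists. The median level per library averaged 0.155 ± 0.0168 at chaperone sites and 0.209 ± 0.00155 at the rest in DECOR (n = 2), 0.184 ± 0.00679 and 0.267 ± 0.00186 in dCas13d-ADAR (n = 4), and 0.193 ± 0.0218 and 0.256 ± 0.00700 in REPAIR.t1 (n = 4). In each of these 10 libraries the median at chaperone sites was the lower of the pair. Sites below a level of 0.2 were 68.7% of chaperone sites and 43.2% of the rest in DECOR. They were 56.6% and 24.1% in dCas13d-ADAR, and 53.2% and 26.0% in REPAIR.t1. The coverage of these sites relative to the rest is unknown.

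Sites were spread unevenly over the 9 genes. HSP90AB1 held 65 distinct sites over all lists, HSP90AA1 61, HSPA9 44, HSPA8 37, HSPD1 35, HSPA4 23, BAG3 11, HSP90B1 5 and HSPA5 1. Per kilobase of span, introns included, HSP90AB1 carried 9.61 sites and HSPA8 6.44, and HSPD1 and HSPA9 followed with 2.63 and 2.14. HSP90AA1 carried 1.03 sites per kilobase over a span of 59012 bases, HSPA4 0.434, BAG3 0.416, HSP90B1 0.285 and HSPA5 0.153. All HSP90AA1 sites lay within 6250 bases of the span's 3′ end and all BAG3 sites within 5219. Density over the whole span therefore understates how close the sites of these 2 genes lie. Several of these genes, HSP90AA1, HSP90AB1, HSPA8 and HSPD1 among them, have close relatives or processed copies elsewhere in the genome. How reads that match more than 1 copy were placed is not given in the sources used here, so the counts of these genes are uncertain to that extent.

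**Figure D2:**
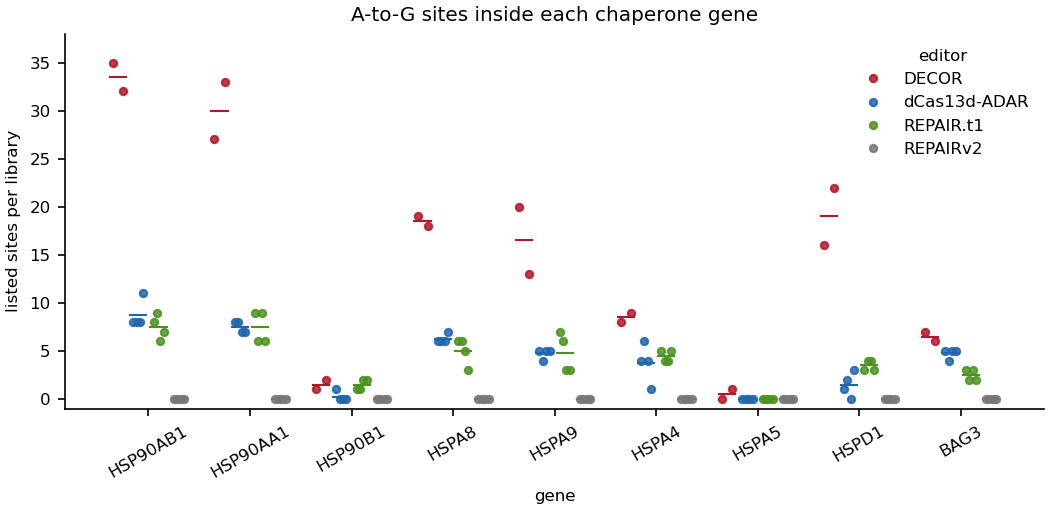
Number of listed sites in each chaperone gene, with 1 point per library, coloured by editor, and a line at the editor's mean where it is above 0. DECOR points stand above those of dCas13d-ADAR and REPAIR.t1 in HSP90AB1, HSP90AA1, HSPA8, HSPA9, HSPA4, HSPD1 and BAG3, whereas HSP90B1 and HSPA5 held at most 2 sites in any library.

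The cytosolic HSP90 genes held the most sites. HSP90AB1, the constitutively made HSP90, is at chr6:44214848-44221614 on the plus strand (hg19, as are all positions below). DECOR listed 35 and 32 sites in it, dCas13d-ADAR 8 and 11 with the EZH2 guide and 8 and 8 with NT, and REPAIR.t1 6 and 7 with EZH2_A22 and 8 and 9 with NT. Levels in HSP90AB1 stayed below 0.5 in every library, with a highest value of 0.444 in DECOR, 0.413 in dCas13d-ADAR and 0.279 in REPAIR.t1. Of its 48 DECOR sites 19 were in both DECOR libraries. Of its 18 sites in dCas13d-ADAR or REPAIR.t1, 3 were in all 8 libraries of these editors.

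HSP90AA1, the stress-inducible cytosolic HSP90, is at chr14:102547075-102606086 on the minus strand. DECOR listed 27 and 33 sites, dCas13d-ADAR 7 and 7 with EZH2 and 8 and 8 with NT, and REPAIR.t1 9 and 6 with EZH2_A22 and 9 and 6 with NT. All 61 sites fell between 206 and 6250 bases from the 3′ end of the 59012-base span, and the rest of the span was empty in every list. The highest DECOR level in the gene was at chr14:102552414, where the libraries gave 0.462 and 0.434. No dCas13d-ADAR or REPAIR.t1 library listed that position.

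The genes of the HSP90 and HSP70 of the endoplasmic reticulum held few listed sites. HSP90B1, also known as GRP94, held 1 and 2 sites in DECOR, 1 site in 1 of the 4 dCas13d-ADAR libraries, and 2 and 2 sites with EZH2_A22 and 1 and 1 with NT in REPAIR.t1. HSPA5, or BiP, held a single site, chr9:128001748, in 1 DECOR library at a level of 0.143. With 6 distinct sites in all, these reticulum transcripts held fewer than BAG3, the next lowest of the cytosolic and mitochondrial set with 11.

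Among HSP70 genes, HSPA8 held the most sites per base. HSPA8 is the constitutive cytosolic HSP70, which also strips clathrin from vesicles, and lies at chr11:122928197-122933938 on the minus strand. DECOR listed 19 and 18 sites, dCas13d-ADAR 6 and 7 with EZH2 and 6 and 6 with NT, and REPAIR.t1 5 and 3 with EZH2_A22 and 6 and 6 with NT. Of its 23 DECOR sites 14 were in both libraries, 60.9% against 40.1% over the 9 genes. HSPA9, the mitochondrial HSP70 also called mortalin, differed more between the DECOR libraries, with 20 and 13 sites, and 6 of its 27 DECOR sites were in both. In HSPA9 dCas13d-ADAR listed 5 and 5 sites with EZH2 and 5 and 4 with NT, and REPAIR.t1 3 and 3 with EZH2_A22 and 7 and 6 with NT, so these editors overlapped.

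HSPD1, the mitochondrial chaperonin HSP60, was rich in DECOR sites and held few of dCas13d-ADAR. DECOR listed 16 and 22 sites, dCas13d-ADAR 0 and 3 with EZH2 and 1 and 2 with NT, and REPAIR.t1 4 and 3 with EZH2_A22 and 3 and 4 with NT. In number of sites per library, though not in shared positions, the REPAIR.t1 and dCas13d-ADAR ranges met at 3. HSPA4, an HSP110-type protein that exchanges the nucleotide of HSP70, held 8 and 9 sites in DECOR, 4 and 1 with EZH2 and 4 and 6 with NT in dCas13d-ADAR, and 4 and 5 with EZH2_A22 and 5 and 4 with NT in REPAIR.t1.

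The median level in BAG3 was higher than in each other gene with sites, a description with no test. BAG3 is a cofactor of HSP70 that takes part in the autophagic removal of damaged proteins, and its transcript is raised by stress. It held 7 and 6 sites in DECOR, 5 and 5 with EZH2 and 5 and 4 with NT in dCas13d-ADAR, and 3 and 2 with EZH2_A22 and 3 and 2 with NT in REPAIR.t1. The median over all listings in BAG3 was 0.4 in DECOR, 0.419 in dCas13d-ADAR and 0.323 in REPAIR.t1, against 0.137 to 0.194, 0.125 to 0.233 and 0.138 to 0.231 in the other genes with sites. Some of these genes had few listings, such as HSP90B1 with 1 in dCas13d-ADAR. Single levels overlapped. In REPAIR.t1 the highest level was 0.5 in HSP90AA1, against 0.462 in BAG3, and in dCas13d-ADAR BAG3 levels went down to 0.189. Its few sites also recurred. All 5 sites of dCas13d-ADAR and all 3 of REPAIR.t1 were in at least 2 libraries of the editor. Over the 9 genes the shares were 50.7% and 55.1%. Over the whole lists, 52.5% of dCas13d-ADAR and 57.3% of REPAIR.t1 sites were in 1 library only. In DECOR 6 of its 7 sites were in both libraries, against 40.1% over the 9 genes and 22.2% of all DECOR sites. HSPA4 was close in REPAIR.t1, with 6 of 7 sites in at least 2 libraries.

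All 11 BAG3 sites lay between 227 and 5219 bases from the 3′ end of a span of 26450 bases at chr10:121410882-121437331, and 7 of them within 1000 bases. In dCas13d-ADAR the highest level in any chaperone gene was at chr10:121437104, 227 bases from that end. The libraries gave 0.739 and 0.611 with the EZH2 guide and 0.533 and 0.562 with the NT guide, and no other editor listed the position. At chr10:121436607 the dCas13d-ADAR libraries gave 0.452 and 0.419 with EZH2 and 0.595 and 0.455 with NT. REPAIR.t1 listed that position in 1 library of each guide, at 0.361 with EZH2_A22 and 0.462 with NT, within the dCas13d-ADAR range or just below it. At chr10:121436247, 7 bases from the shared site chr10:121436240, dCas13d-ADAR gave 0.351 and 0.346 with EZH2 and 0.393 in 1 library with NT, and REPAIR.t1 gave 0.280 and 0.308 with EZH2_A22 and 0.345 and 0.333 with NT. Each dCas13d-ADAR value lay above all REPAIR.t1 values by a small margin, with 1 library lacking the site.

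**Figure D3:**
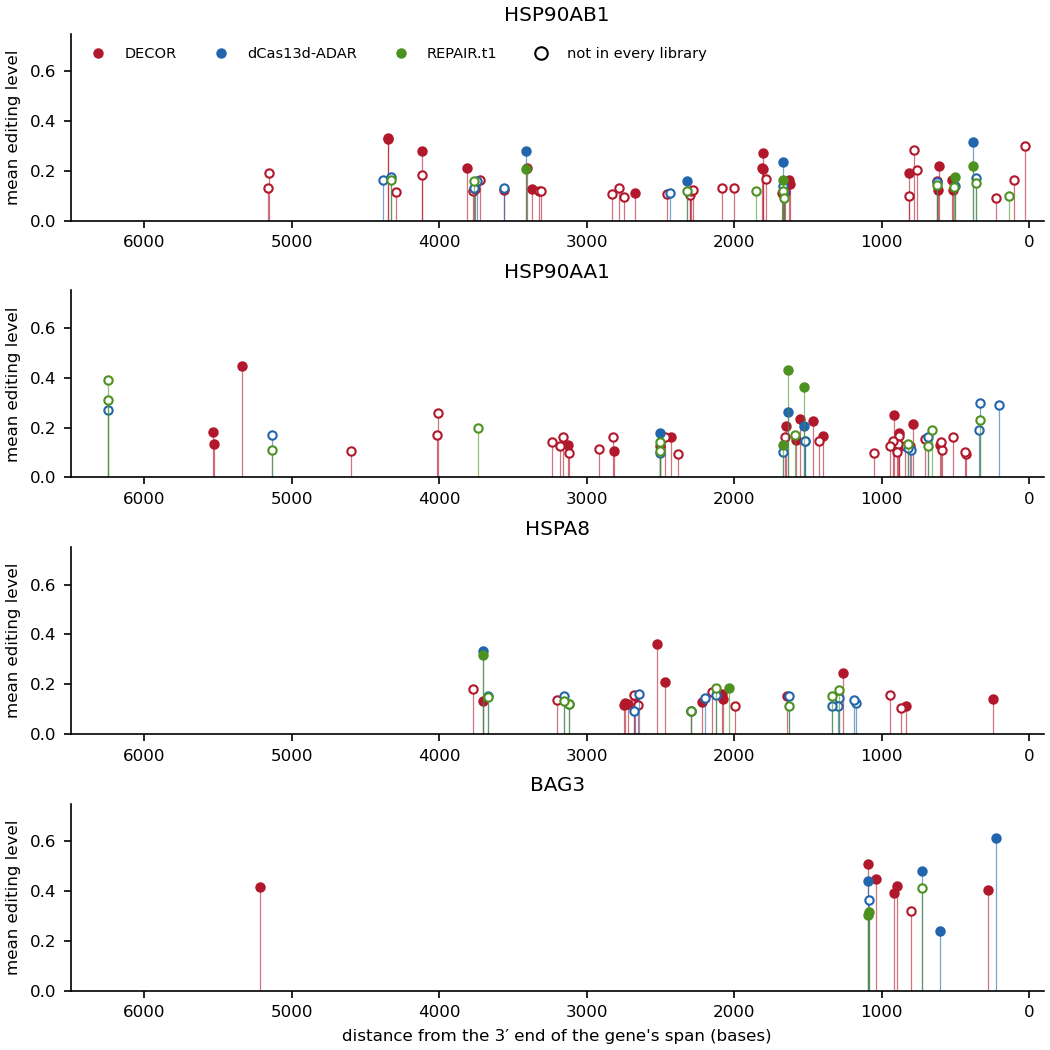
Mean editing level, as a fraction, of each site in HSP90AB1, HSP90AA1, HSPA8 and BAG3 by its distance in bases from the 3′ end of the gene's span, which is at the right. Filled points are sites listed by every library of the editor and open points the others; spans run on to the left of the axes for HSP90AA1 and BAG3 without a further site. BAG3 points lie mostly above 0.3, whereas most points of the other 3 genes lie below 0.2.

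As over the whole lists, DECOR mostly listed other positions than dCas13d-ADAR and REPAIR.t1 in these genes. Of the 192 DECOR chaperone sites 7 (3.65%) were listed by another editor, against 3.75% of all DECOR sites. Seen from the other side, 7 of the 97 sites of dCas13d-ADAR or REPAIR.t1 (7.22%) were in DECOR, against 1.99% over all their sites. The median distance from a DECOR site to the nearest dCas13d-ADAR or REPAIR.t1 site was 65 bases in the chaperone genes and 161 over all DECOR sites, and 41.7% and 32.3% lay within 50 bases of one. Sites of either kind were also denser in these genes. The median distance from a DECOR site to its nearest DECOR site was 21 bases, against 140 over all. Because the genes were picked for their sites, these densities and distances are a description and were not tested. The 7 shared positions were chr10:121436240 in BAG3, chr14:102549578 in HSP90AA1, chr6:44218055 in HSP90AB1, chr2:198354965 in HSPD1, and chr11:122930490, chr11:122930877 and chr11:122931900 in HSPA8.

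Levels at these shared positions were not alike. At chr10:121436240 in BAG3 the DECOR libraries gave 0.629 and 0.390, dCas13d-ADAR 0.351 and 0.556 with EZH2 and 0.414 and 0.444 with NT, and REPAIR.t1 0.286 and 0.345 with EZH2_A22 and 0.312 and 0.280 with NT. Each of the 3 editors reached 0.345 or more there, and the DECOR and dCas13d-ADAR ranges overlapped. At chr11:122931900 in HSPA8 the DECOR libraries gave 0.137 and 0.127, dCas13d-ADAR 0.390 and 0.442 with EZH2 and 0.250 and 0.255 with NT, and REPAIR.t1 0.365 and 0.306 with EZH2_A22 and 0.333 and 0.263 with NT. Both DECOR libraries lay below all 8 others at this position. These were the positions with the most listings, 10 of the 14 libraries each. At chr2:198354965 in HSPD1 DECOR gave 0.154 and 0.211, and REPAIR.t1 gave 0.170 and 0.178 with EZH2_A22 and 0.169 in 1 library with NT, so the 2 editors overlapped, and no dCas13d-ADAR library listed it. The other 4 positions ranged from 0.0909 to 0.157 in every library that listed them.

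Within 2 bases, DECOR sites in these genes had a neighbour about as often as elsewhere in the DECOR lists. Within 10 bases they had one more often, at 34.4% of DECOR chaperone sites against 17.5% of all DECOR sites. No 2 DECOR chaperone sites were adjacent bases, against 1.12% of all DECOR sites with an adjacent one, and 8 pairs lay 2 bases apart, 6 of them in HSP90AB1, 1 in HSP90AA1 and 1 in HSPD1. Sites of dCas13d-ADAR or REPAIR.t1 formed 5 pairs of adjacent bases and none had its nearest neighbour 2 bases away, as 201 of all 17194 such sites did. The share of sites with a neighbour within 2 bases was 7.81% in DECOR against 6.79% of all DECOR sites, and 10.3% of dCas13d-ADAR or REPAIR.t1 sites had an adjacent one against 3.36% of all. In HSP90AB1 a run of 3 DECOR sites at chr6:44219806, chr6:44219808 and chr6:44219810 was read at 0.25 and 0.172, 0.262 and 0.281, and 0.175 and 0.241 in the 2 libraries. None of these 3 positions was in another editor's list. Overlapping sites share reads, so sites this close are not separate observations of the library.

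Within DECOR, 77 of the 192 chaperone sites were in both libraries (40.1%), against 22.2% of all DECOR sites. Of the 282 chaperone sites, 72 were in both DECOR libraries and in no other list, against 1972 of all 26172 sites (7.53%). DECOR sites were 192 of the 282 and 9304 of the 26172, so this contrast partly repeats the number of DECOR sites in genes picked for their sites. At the 77 sites the libraries averaged 0.212 and 0.199, their median absolute difference was 0.0374, and the largest difference was 0.238, at chr10:121436240 in BAG3. Over all 2067 sites listed by both DECOR libraries the averages were higher, at 0.234 and 0.230, and the median absolute difference was 0.0421. Sites seen in 1 library had a median level of 0.143 over 115 listings, and those seen in both 0.183 over 154.

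The highest of these reproducible DECOR levels were mostly in BAG3. A mean of 0.3 or more over the 2 libraries was reached at 10 of the 77 sites, 6 of them in BAG3. The share of all DECOR sites reaching that level was not computed, so the count only describes these genes. In BAG3 the libraries gave 0.5 and 0.395 at chr10:121436293, 0.432 and 0.409 at chr10:121436436, and 0.432 and 0.4 at chr10:121432112. The remaining ones outside HSP90AA1 were chr11:122930722 in HSPA8, with 0.433 and 0.286, and 2 sites in HSP90AB1, chr6:44217263 with 0.298 and 0.368 and chr6:44217267 with 0.214 and 0.444.

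dCas13d-ADAR and REPAIR.t1 shared most of their chaperone sites. Of 73 dCas13d-ADAR sites 45 (61.6%) were also in REPAIR.t1, against 47.0% over all dCas13d-ADAR sites, and of 69 REPAIR.t1 sites the same 45 (65.2%) were in dCas13d-ADAR, against 54.5% over all. Between single libraries, the share of the shorter chaperone list found in the other averaged 54.5% over the 16 pairs of a dCas13d-ADAR with a REPAIR.t1 library (42.1% to 67.7%). It averaged 60.4% between dCas13d-ADAR libraries (47.4% to 74.3%, 6 pairs) and 66.1% between REPAIR.t1 libraries (60.5% to 75%, 6 pairs). The ranges overlapped, and the mean was lowest between the editors.

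Few positions separated these editors completely. In BAG3, chr10:121437104 and chr10:121436729 were listed by all 4 dCas13d-ADAR libraries and no REPAIR.t1 library, 2 of 97 sites, against 1.04% over all sites of these editors. At chr10:121436729 the levels were 0.2 and 0.281 with EZH2 and 0.294 and 0.189 with NT. The reverse held at chr11:122930232 in HSPA8, listed by all 4 REPAIR.t1 libraries at 0.229 and 0.178 with EZH2_A22 and 0.122 and 0.205 with NT, 1 of 97 sites against 0.459% over all. Just past the HSP90AB1 span, by 490 bases, chr6:44222104 was in all 4 dCas13d-ADAR libraries at a mean of 0.352. A second position 455 bases past that span was in 1 dCas13d-ADAR library at 0.286, and no other site lay within 1000 bases outside any of the 9 spans.

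Levels of dCas13d-ADAR and REPAIR.t1 were compared at the 10 chaperone sites that all 8 libraries listed, out of 609 such sites in the whole lists. These 10 are 10 of the 97 chaperone sites, against 3.54% of all sites of these editors, and being listed everywhere favours sites with higher levels. The test was limma on log2 odds of the level with the guide as a covariate, with Benjamini-Hochberg adjustment over the 609 sites. The covariate set EZH2 and EZH2_A22 together against NT, so a difference between these guides cannot be told apart from the editor. Of the 609 sites 7.22% passed an adjusted p of 0.05 (6.57% higher in dCas13d-ADAR and 0.657% lower), and 1 of the 10 chaperone sites did. At an unadjusted p of 0.05 the counts were 4 of 10 and 25.9% of all. dCas13d-ADAR was the higher in 7 of the 10 and in 74.2% of all sites, with a median difference of 0.49 on the log2 odds scale over the 10 and 0.34 over all. That direction rested on the second dCas13d-ADAR EZH2 library. Without it dCas13d-ADAR was the higher at 5 of 11 chaperone sites (45.5%), with a median of -0.05, against 72.1% of all sites with a median of 0.31. With the NT libraries alone it was the higher at 5 of 13, with a median of -0.19.

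The site that passed was in HSP90AA1 and was lower in dCas13d-ADAR. At chr14:102548598, 1523 bases from the 3′ end of the span, dCas13d-ADAR gave 0.146 and 0.367 with EZH2 and 0.140 and 0.167 with NT, and REPAIR.t1 gave 0.353 and 0.370 with EZH2_A22 and 0.444 and 0.283 with NT. In dCas13d-ADAR 3 of the 4 libraries lay below all REPAIR.t1 libraries, and the second EZH2 library lay within their range. The means were 0.205 ± 0.109 in dCas13d-ADAR and 0.362 ± 0.0664 in REPAIR.t1 (SD, n = 4 each), a difference of -1.20 ± 0.38 on the log2 odds scale (SE, adjusted p = 0.0367, limma). Without the second dCas13d-ADAR EZH2 library the difference was -1.62, and without any other single library it ran from -1.32 to -0.92. The call was unstable, since the adjusted p ran from 0.00969 to 0.618 over 17 alternative settings and was under 0.05 in 8 of them. It was 0.177 without the first and 0.0838 without the second dCas13d-ADAR NT library, 0.163 without the first dCas13d-ADAR EZH2 library, 0.201 without the second REPAIR.t1 NT library and 0.0888 without the second REPAIR.t1 EZH2_A22 library.

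A second HSP90AA1 site 113 bases away differed in the same direction without passing the test. At chr14:102548711 dCas13d-ADAR gave 0.265 and 0.282 with EZH2 and 0.282 and 0.216 with NT, and REPAIR.t1 gave 0.4 and 0.390 with EZH2_A22 and 0.426 and 0.5 with NT. All 4 dCas13d-ADAR libraries lay below all 4 REPAIR.t1 libraries, at 1 of the 10 chaperone sites against 1.81% of the 609 sites. The difference was -1.07 ± 0.35 on the log2 odds scale (SE, adjusted p = 0.0512, limma). It passed in 3 of 18 alternative settings. Both sites lie in the same stretch of one transcript, so they are not independent.

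At 2 of the 10 sites all dCas13d-ADAR libraries lay above all REPAIR.t1 libraries, against 11.5% of the 609. In HSPA9, chr5:137897459 was read at 0.423 and 0.310 with EZH2 and 0.375 and 0.323 with NT in dCas13d-ADAR, and at 0.222 and 0.259 with EZH2_A22 and 0.171 and 0.235 with NT in REPAIR.t1. The difference was 0.94 ± 0.35 on the log2 odds scale and did not pass (SE, adjusted p = 0.0910, limma). The BAG3 site chr10:121436240, given above, was the other, with 0.441 ± 0.0855 in dCas13d-ADAR and 0.306 ± 0.0296 in REPAIR.t1 and an adjusted p of 0.138 by limma.

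The remaining 6 sites overlapped between the editors and none passed. The 3 HSP90AB1 sites averaged 0.282 ± 0.0900 in dCas13d-ADAR and 0.206 ± 0.0460 in REPAIR.t1 at chr6:44218200, 0.237 ± 0.0738 and 0.163 ± 0.0365 at chr6:44219943, and 0.315 ± 0.0671 and 0.220 ± 0.0695 at chr6:44221236, with limma adjusted p-values from 0.192 to 0.338. In HSPA4, chr5:132425323 averaged 0.211 ± 0.0180 in dCas13d-ADAR and 0.301 ± 0.0506 in REPAIR.t1, a difference of -0.65 on the log2 odds scale (adjusted p = 0.229, limma). In HSPA9, chr5:137891173 averaged 0.333 ± 0.145 in dCas13d-ADAR and 0.264 ± 0.0494 in REPAIR.t1 (adjusted p = 0.508, limma). In HSPA8, chr11:122931900 averaged 0.334 ± 0.0968 in dCas13d-ADAR and 0.317 ± 0.0434 in REPAIR.t1, the closest pair of the 10 (adjusted p = 0.910, limma).

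**Figure D4:**
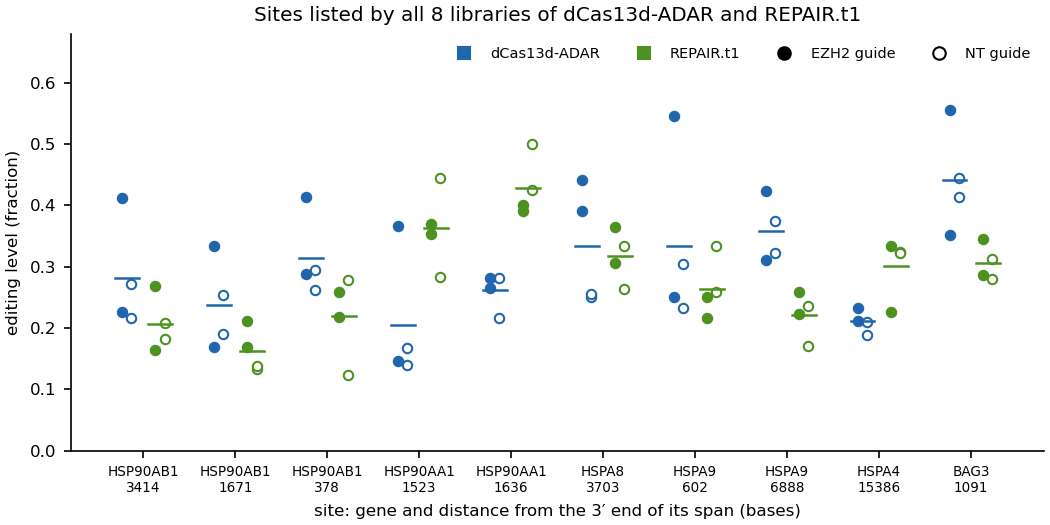
Editing level, as a fraction, at the 10 chaperone sites listed by all 8 libraries of dCas13d-ADAR and REPAIR.t1. Each point is 1 library, filled for the EZH2 or EZH2_A22 guide and open for NT, lines mark the editor's mean over 4 libraries, and the number under each gene is the distance in bases from the 3′ end of its span. At the HSP90AA1 site 1523 bases from that end 3 dCas13d-ADAR points lie below 0.2 and 1 at 0.367, and at the site at 1636 bases all 4 lie below the REPAIR.t1 points.

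Other recurrent sites lacked 1 or 2 of the 8 libraries, and those named in HSPA8, HSPA4 and HSP90AA1 had low levels. Higher means over the listing libraries were found at chr10:121436607 (0.457) and chr10:121436247 (0.337) in BAG3 and chr2:198352662 (0.338) in HSPD1. In HSPA8, chr11:122930318 averaged 0.156 ± 0.0228 in 3 dCas13d-ADAR libraries and 0.184 ± 0.0534 in 3 of REPAIR.t1. In HSPA4, chr5:132428472 averaged 0.167 ± 0.0333 in 3 dCas13d-ADAR libraries and 0.188 ± 0.0550 in 4 of REPAIR.t1. In HSP90AA1, chr14:102549575 averaged 0.180 ± 0.0393 in 4 dCas13d-ADAR libraries, against 0.133 in 1 REPAIR.t1 library with EZH2_A22 and 0.148 in 1 with NT. The editors overlapped at each of these 3 sites.

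HSPD1 entered this comparison only when 1 library was allowed to lack the site. At chr2:198352662 dCas13d-ADAR gave 0.241 with EZH2 in the library that listed it and 0.3 and 0.289 with NT, and REPAIR.t1 gave 0.375 and 0.308 with EZH2_A22 and 0.447 and 0.405 with NT. The 3 dCas13d-ADAR values lay below all 4 REPAIR.t1 values. The difference was -0.76 ± 0.37 on the log2 odds scale and did not pass (SE, adjusted p = 0.226, limma).

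Neither EZH2 guide changed the level of a chaperone site detectably. The guides are named for EZH2, a histone methyltransferase whose gene is not among the 9. With EZH2_A22 against NT in REPAIR.t1, 0 of 16 chaperone sites and 0% of 1053 sites passed the limma test, and at an unadjusted p of 0.05 the counts were 0 of 16 and 5.79%. With EZH2 against NT in dCas13d-ADAR, 0 of 15 and 0% of 1665 passed, and 1 of 15 against 5.23% at an unadjusted p of 0.05. With 2 libraries on each side, these counts do not show that the levels were equal.

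The direction in dCas13d-ADAR was lopsided and rested on 1 library. On the log2 odds scale EZH2 was above NT at 14 of the 15 chaperone sites (93.3%), against 49.97% of all sites tested, with a median difference of 0.38 against -0.00. By mean level it was above NT at 13 of the 15 (86.7%). Without the second EZH2 library the log2 odds were above those with NT at 10 of 18 sites (55.6%) against 47.5% of all, with a median of 0.10. In REPAIR.t1 the log2 odds were above those with NT at 8 of 16 sites with EZH2_A22, against 54.9% of all, with a median difference of -0.08 against 0.05, and the mean level was above NT at 7 of 16. The site with the largest positive difference in dCas13d-ADAR was chr11:122931900 in HSPA8, at 0.416 ± 0.0365 with EZH2 and 0.252 ± 0.00347 with NT (SD, n = 2 each), a difference of 1.05 ± 0.48 on the log2 odds scale that did not pass (SE, adjusted p = 0.922, limma).

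That second EZH2 library was high at the shared chaperone sites but not over all shared sites. Over the 10 sites listed by all 8 libraries its mean level was 0.387, against 0.274 in the other EZH2 library and 0.268 and 0.262 in the NT libraries of dCas13d-ADAR. It was the highest of the 4 at 7 of the 10 sites. Over all 609 sites its mean was 0.367, against 0.365 in the other EZH2 library and 0.369 and 0.377 in the NT libraries, and it was the highest of the 4 at 24.5% of them. What sets this library apart at these sites was not tested.

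**Figure D5:**
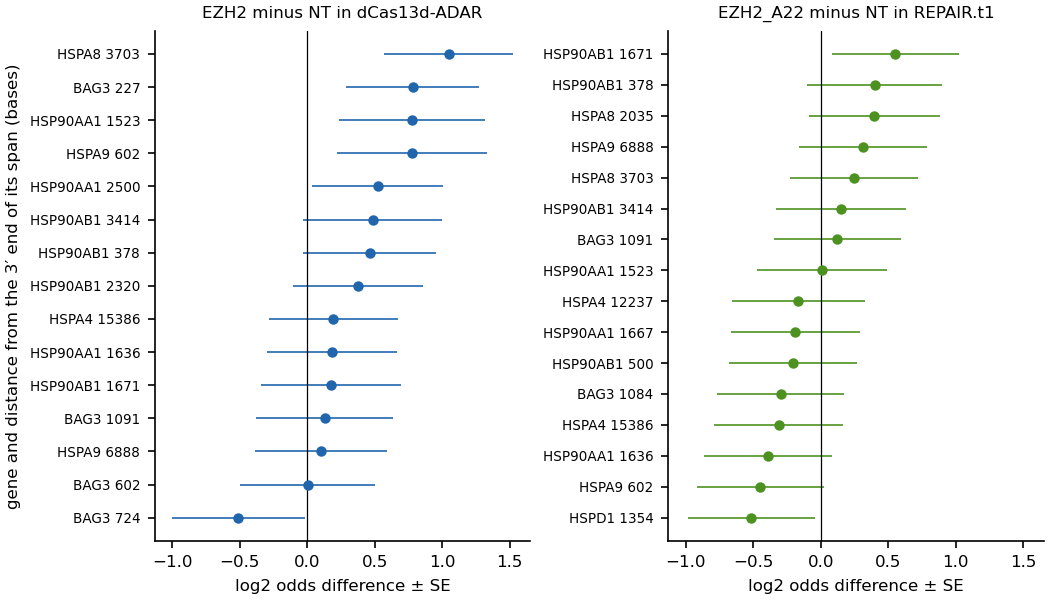
Difference in editing level between guides at each tested chaperone site, as log2 odds with 1 SE from limma, for EZH2 minus NT in dCas13d-ADAR (left, 15 sites) and EZH2_A22 minus NT in REPAIR.t1 (right, 16 sites). The numbers after the gene names are distances in bases from the 3′ end of the span. On the left 14 of 15 points are at or right of 0, 10 of 18 when the second EZH2 library is left out, and on the right 8 of 16 are; no point passed the test on either side.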

How the data were processed

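For each library the authors deposited the chromosome and position of its sites and their A-to-G rate, a fraction per the file headers. The tools cutadapt and STAR 2.6.1b and the genome hg19 (GRCh37) are named, with no stated role, in the submitters' processing notes. How sites were called, and with which minimum, is not given in the sources used here. The lists hold no counts and no strand, so depth is unknown.

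The 9 genes, their hg19 spans and the sites named were chosen with earlier results of these data known. Named were the highest 3 sites per gene among those in at least 6 of the 8 dCas13d-ADAR and REPAIR.t1 libraries, sites in both DECOR libraries or shared with DECOR, called sites, and sites in all 4 libraries of one of these editors and none of the other. Sites in both DECOR libraries are given as counts and ranges, with the highest printed. Gene strand came from RefSeq (GRCh38.p14) and served only to orient the spans. No hg19 sequence or exon annotation was used, so exon, intron and sequence context were not analysed here, nor were other chaperone genes.

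Groups were read from the titles. Levels were compared as log2 odds (0.01 added to both terms of the odds) in limma 3.58.1 (lmFit and eBayes), over every site listed by all libraries compared, with Benjamini-Hochberg adjustment over those sites. A count model had been the first choice, had counts been given. The test was tried on simulated data. Alternatives were a lowest level of 0.1 or 0.2, sites found in both replicates, sharing within 50 bases, spans widened by 1000 bases, an added 0.001, untransformed levels, sites missing from at most 1 library, a mean-dependent prior spread, each guide alone, no guide covariate, the replicate number as a block, and each library left out in turn. Calculations used Python 3.11.15, pandas 2.3.3 and R 4.3.3, with figures from matplotlib 3.10.9.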

Additional observations from a re-analysis of the deposited data

Results flagged for a closer look

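Of 39 sets of 4 libraries examined for a library far from the other 3, 3 held one. That is not far from the 1 in 20 or so that chance alone gives. The mean level at the 10 chaperone sites listed by all 8 libraries was 0.387 in the second dCas13d-ADAR EZH2 library, far above the other 3 dCas13d-ADAR libraries, which gave 0.274 with EZH2 and 0.268 and 0.262 with NT. The same library lay far above the others at chr14:102548598 in HSP90AA1, at 0.367 against 0.146 with EZH2 and 0.140 and 0.167 with NT. That site is among the 10 in the mean, so the site and the mean are not separate observations. At chr5:132425323 in HSPA4 the first REPAIR.t1 EZH2_A22 library lay far below the others, at 0.226 against 0.333 with EZH2_A22 and 0.324 and 0.323 with NT.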

How the results depend on the processing

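The count of chaperone sites passing between dCas13d-ADAR and REPAIR.t1 was 1. It became 0 at a minimum level of 0.2, with sites missing from at most 1 library and with NT or EZH2 libraries alone, 2 with a mean-dependent prior spread or no guide covariate, and 0 to 1 with a library left out. With untransformed levels it stayed 1 but the site changed, since chr14:102548598 lost its call (adjusted p = 0.0991, limma) and chr14:102548711 gained one (adjusted p = 0.0440, limma). The whole-list count of 44 became 17 at a minimum level of 0.2, 2 with NT alone, 0 with EZH2 alone, 10 without the first dCas13d-ADAR NT library, and 19 and 18 without the second REPAIR.t1 NT or EZH2_A22 library. The differences at chr11:122931900 and chr5:137891173 turned sign to -0.31 and -0.19 with NT alone and, with a library left out, ranged from -0.069 to 0.26 and from -0.060 to 0.66 on the log2 odds scale. They were -0.053 and -0.060 without the second dCas13d-ADAR EZH2 library, and the first was -0.069 without the second REPAIR.t1 EZH2_A22 library. Replicate numbers did not pair the samples, with correlations of -0.01 to 0.06 between replicate differences over the 609 sites. With the replicate block 1 site passed (adjusted p = 0.0284, limma) and none in either guide test, and no call changed. The guide tests gave 0 calls in every setting. The share of tested sites higher with the EZH2 guide ran from 55.6% to 86.7% in dCas13d-ADAR and from 36.8% to 57.9% in REPAIR.t1 with a library left out, and that higher in dCas13d-ADAR than in REPAIR.t1 from 45.5% to 72.7%, all chosen after seeing the data.

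Chaperone sites per library fell to 42 in DECOR, 16.3 in dCas13d-ADAR and 17 in REPAIR.t1 at a minimum level of 0.2, to 129 in DECOR at 0.1, and to 77, 21 and 21.5 with sites found in both replicates. Median levels were 0.258, 0.298 and 0.287 at that minimum of 0.2 and 0.178, 0.246 and 0.222 with sites found in both replicates. The shares of the lists, whose alternatives were chosen after seeing the data, were 1.32%, 0.371% and 0.496%, and 3.73%, 0.723% and 1.04%. With a library left out, DECOR ranged over 133 to 136 sites, medians of 0.143 to 0.167 and shares of 2.32% to 2.41%. dCas13d-ADAR ranged over 37 to 38.3 sites, 0.181 to 0.187 and 0.640% to 0.664%, and REPAIR.t1 over 35 to 38.7 sites, 0.183 to 0.2 and 0.759% to 0.842%. Counting positions within 50 bases as shared, 41.7% of DECOR sites were near another editor's site and 74.0% of dCas13d-ADAR sites near one of REPAIR.t1. The causes of these changes were not tested, other than that a minimum or a second listing leaves fewer sites. Depth is unknown, so differences in site numbers cannot be told apart from differences in coverage.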
